A study of Mus musculus with 8 samples.

Results

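Cathepsins, the proteases of the lysosome, and cystatin C, the secreted inhibitor of the cysteine cathepsins, were examined in glomeruli of mice without the tetraspanin Cd151. The 9 genes were *Ctsa*, *Ctsb*, *Ctsc*, *Ctsh*, *Ctsk*, *Ctsl*, *Ctss*, *Ctsz* and *Cst3*, and a probe was taken where the gene symbol beside it in the signal table equalled one of these names. This gave 11 of the 25697 probes on the array, for 8 of the 9 genes. *Ctsa* had no row of that name, but the RefSeq gene table gives *Ppgb* as an older symbol of it, and the 4 *Ppgb* probes are described here as *Ctsa* without being counted among the 11. Glomerular RNA of 4 *Cd151*+/+ and 4 *Cd151*-/- mice, all male, of the FVB/N strain and 3 weeks old, was hybridised to Illumina MouseRef-8 v1.1 BeadChips, 1 mouse per array. The knockout is present in the whole animal, and its controls carry no other allele or treatment by the labels. Glomeruli were isolated with magnetic beads perfused through the heart, collagenase digestion and washing on a magnet until, by the methods, nearly all of the material was glomeruli, so each sample is a mixture of glomerular cells with whatever remained attached. The comparison asks which genes differ in glomeruli of *Cd151*-/- mice at an early stage of their kidney disease.

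Most cathepsins are cysteine proteases that are made as inactive precursors, carried to the lysosome and activated there by cleavage, and they degrade proteins that reach it by endocytosis or autophagy. Cystatin C binds the active site of cysteine cathepsins outside cells, and because it is freely filtered by the glomerulus and broken down in the proximal tubule its blood level is used to estimate filtration. In podocytes, the epithelial cells that cover the glomerular capillaries, cathepsin L is known for cleaving dynamin, synaptopodin and Cd2ap, proteins that hold the actin cytoskeleton of the foot processes.

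The promoters of *Ctsl* and *Ctsz* are printed because these are the members with a probe past an unadjusted p of 0.05 below, and the downstream promoter of *Ctsa* because it holds the most copies of the motif searched. Each line runs from 250 bases before to 50 bases after the annotated start (RefSeq, GRCm38.p6), 5′ to 3′ on the strand of the gene, and capitals mark CACGTG, the E-box core that is part of the element bound by Tfeb, a transcription factor of lysosomal genes. The motif reads the same on both strands.
*Ctsl*, chr13:64370471-64370770, minus strand: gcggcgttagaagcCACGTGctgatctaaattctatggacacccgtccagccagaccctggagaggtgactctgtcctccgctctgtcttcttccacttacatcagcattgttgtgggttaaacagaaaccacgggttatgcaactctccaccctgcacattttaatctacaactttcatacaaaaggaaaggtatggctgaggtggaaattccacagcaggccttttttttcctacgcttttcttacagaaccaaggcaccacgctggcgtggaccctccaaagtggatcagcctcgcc
*Ctsz*, chr2:174438990-174439289, minus strand: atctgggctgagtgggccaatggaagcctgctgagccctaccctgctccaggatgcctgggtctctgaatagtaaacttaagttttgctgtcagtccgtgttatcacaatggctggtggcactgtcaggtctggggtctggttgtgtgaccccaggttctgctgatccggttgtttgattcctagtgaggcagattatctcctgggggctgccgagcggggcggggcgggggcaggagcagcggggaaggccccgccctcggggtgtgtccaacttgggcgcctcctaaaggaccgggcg
*Ctsa*, chr2:164833523-164833822, plus strand: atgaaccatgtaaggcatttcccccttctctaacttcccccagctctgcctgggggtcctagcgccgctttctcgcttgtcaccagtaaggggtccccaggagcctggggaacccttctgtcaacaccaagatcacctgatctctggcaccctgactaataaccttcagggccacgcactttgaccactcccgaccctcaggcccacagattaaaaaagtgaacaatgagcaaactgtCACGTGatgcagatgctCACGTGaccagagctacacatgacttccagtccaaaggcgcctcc
The motif began at position -236 from the start in the *Ctsl* promoter and at -12 and 5 in that of *Ctsa*, and it was not in the *Ctsz* window. RefSeq promoters were at hand for 7 of the 9 genes (8 promoters, none for *Ctsb* or *Ctsh*), and 2 of the 7 genes had the motif. Over all promoters of that length 7.15% held it, and 8.09% of all genes had it in at least 1 promoter.

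The level of a probe is its normalised log2 signal, the brightness of a probe after removal of the array's background and quantile normalisation, so a difference of 1 is a doubling. Probes differ in how they bind, so brightness served to choose a probe of a gene and not to rank the amounts of different transcripts, and sums over several markers compare mice only. A probe counts as detected on an array where its deposited detection p-value is 0.05 or lower. The knockout was checked first. All 3 *Cd151* probes were detected in 4 of 4 controls and in 0 of 4 knockouts, and their signal was at least 87.8-fold, 99.9-fold and 523-fold higher in *Cd151*+/+ glomeruli, measured against the lowest detected signal of each *Cd151*-/- array. The arrays stood apart in 2 sets of 4, each with 2 mice of either genotype. In the lower set (*Cd151*+/+ mice 1 and 2, *Cd151*-/- mice 3 and 4) the background was 59.0 to 69.5 signal units, and in the higher set (*Cd151*+/+ mice 3 and 4, *Cd151*-/- mice 1 and 2) it was 123 to 135. The columns do not name a slide or run, so what the sets are was not tested, and differences within each set are given beside the main ones. Between 11291 and 12359 probes were detected per array.

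No cathepsin or cystatin C probe passed limma's test after Benjamini-Hochberg adjustment over all 14967 probes detected on at least 1 array. At an unadjusted p below 0.05, both *Ctsz* probes were higher and the *Ctsl* probe was lower in *Cd151*-/- glomeruli, by 0.73, 0.98 and -0.57 on the log2 scale. The means of *Ctsb*, *Ctsh*, *Ctsk* and *Cst3* were also higher in *Cd151*-/- mice, but the 95% interval of each difference included 0. Of the 11 probes, 8 were tested and the 3 *Ctsc* probes were not detected on any array. Among the 8, 2 were higher at an unadjusted p below 0.05, where 1.69% of all tested probes were, and 1 was lower, where 2.61% were. The share of all probes past an adjusted p of 0.05 was 0.0334%. None of the 8 separated the genotypes completely, while 0.855% of all tested probes had their 4 knockout values above all control values and 1.46% had them below. These samples are bulk RNA, so fewer cells of a type and less RNA per cell cannot be told apart.

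**Figure D1:**
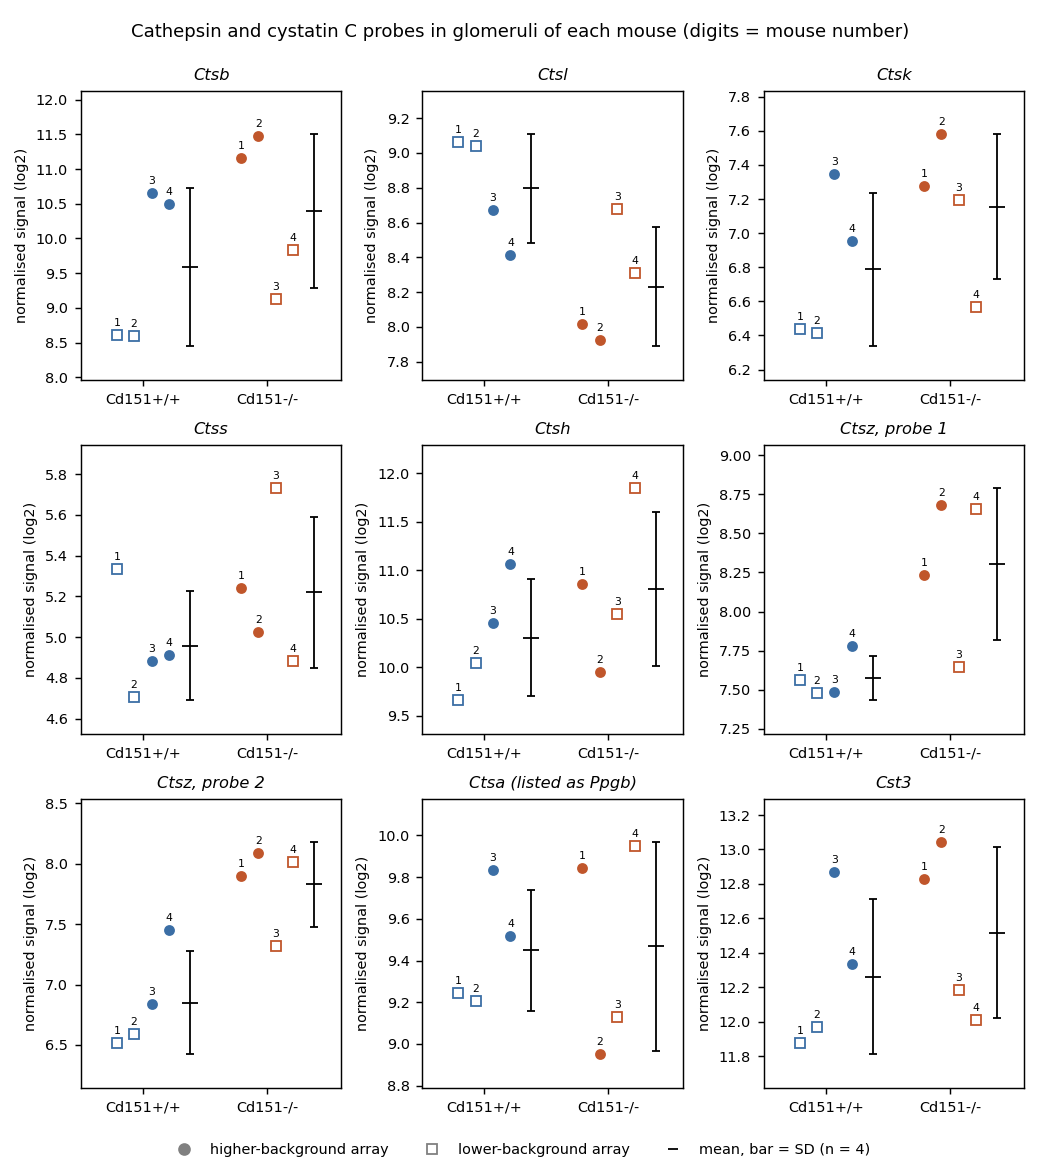
Normalised log2 signal (vertical axes) of the 8 tested probes of 7 genes and of the brightest *Ctsa* probe in each *Cd151*+/+ and *Cd151*-/- mouse, with filled circles for arrays of higher background, open squares for arrays of lower background, and the mean with its SD (n = 4) beside each genotype. In the *Ctsb* panel the higher-background arrays lie above the lower-background arrays in both genotypes, and in the *Ctsz* panels 3 of 4 *Cd151*-/- mice lie above every *Cd151*+/+ mouse.

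Among the endopeptidases, which cut within protein chains, cathepsin L was the member with a lower mean in *Cd151*-/- glomeruli. The normalised log2 signal of *Ctsl* was 9.06, 9.04, 8.67 and 8.41 in *Cd151*+/+ mice 1 to 4, a mean of 8.80 ± 0.31 (SD, n = 4). In *Cd151*-/- mice 1 to 4 it was 8.02, 7.92, 8.68 and 8.31, a mean of 8.23 ± 0.34 (SD, n = 4). *Cd151*-/- mice 1, 2 and 4 were lower than every *Cd151*+/+ mouse, whereas *Cd151*-/- mouse 3 reached the level of *Cd151*+/+ mouse 3, so the genotypes overlapped. The log2 difference was -0.57 (SE 0.25, 95% interval -1.11 to -0.02), a signal 1.48-fold lower in *Cd151*-/- glomeruli, with an unadjusted limma p of 0.0438 and an adjusted p of 0.918. The exact permutation p was 0.0857 (two-sided, all 70 ways of splitting the 8 mice into equal groups, smallest possible value 0.0286). Within the lower-background and the higher-background arrays the difference was -0.56 and -0.57. In each set both *Cd151*-/- mice were below both *Cd151*+/+ mice, as were 6.68% of all tested probes. With the background set as a block, limma gave an unadjusted p of 0.00552 and an adjusted p of 0.356. The unadjusted call rests on single mice, since p was 0.0538 to 0.117 without *Cd151*+/+ mouse 1, 2 or 3 or without *Cd151*-/- mouse 1, 2 or 4, where the difference was -0.46 to -0.61.

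Cathepsin B, an endopeptidase that also trims dipeptides from the end of a chain, differed more between the background sets than between the genotypes. The *Ctsb* signal was 8.61, 8.6, 10.65 and 10.49 in *Cd151*+/+ mice 1 to 4. It was 11.16, 11.47, 9.12 and 9.83 in *Cd151*-/- mice 1 to 4. The deposited signals, before any correction, were 211 to 592 on the lower-background arrays and 1825 to 4852 on the higher-background arrays. The mean of the higher-background arrays exceeded that of the lower by 1.90 on the log2 scale after normalisation, a larger set difference than in 99.6% of tested probes. The median absolute set difference of tested probes was 0.38, and 8.77% of them had one over 1. The genotype difference was 0.81 (SE 0.62, 95% interval -0.55 to 2.16), a 1.75-fold ratio with an adjusted limma p of 0.918 and an exact permutation p of 0.371. Within the lower-background arrays it was 0.87 and within the higher-background arrays 0.75. In each set both *Cd151*-/- mice were above both *Cd151*+/+ mice, as were 5.15% of all tested probes. With the background set as a block, the unadjusted p was 0.00186 and the adjusted limma p 0.326.

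With that block, 3 of the 8 member probes, those of *Ctsb* and *Ctsz*, were higher at an unadjusted p below 0.05, and 1, that of *Ctsl*, was lower. Over all tested probes the block gave 5.21% higher and 6.08% lower at that threshold. None of the members passed an adjusted p of 0.05 with the block, while 0.0535% of all tested probes did.

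Cathepsin K, the collagen-degrading protease best known from osteoclasts, had a *Ctsk* signal of 6.44, 6.41, 7.35 and 6.95 in *Cd151*+/+ mice 1 to 4 and 7.28, 7.58, 7.20 and 6.57 in *Cd151*-/- mice 1 to 4. *Cd151*+/+ mice 1 and 2 and *Cd151*-/- mouse 4 were the lowest, and the genotypes overlapped. The log2 difference was 0.37 (SE 0.29, 95% interval -0.27 to 1.01), with an adjusted limma p of 0.918 and an exact permutation p of 0.257. It was 0.46 within the lower-background and 0.28 within the higher-background arrays. Cathepsin S, which processes the invariant chain in antigen-presenting cells, was near background. *Ctss* was detected in 0 of 4 *Cd151*+/+ mice and in *Cd151*-/- mice 1 and 3, with a log2 signal of 4.70 to 5.33 and 4.88 to 5.73. No fold is given, because the *Cd151*-/- mean lay below the lowest detected signals of the *Cd151*+/+ arrays. No direction can be read from these values.

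Among the cathepsins that remove residues from chain ends, cathepsin Z, a carboxypeptidase, had a higher mean in *Cd151*-/- glomeruli with both of its probes. With the brighter *Ctsz* probe (ILMN_2839569) the signal was 7.56, 7.48, 7.48 and 7.78 in *Cd151*+/+ mice 1 to 4, a mean of 7.58 ± 0.14 (SD, n = 4). In *Cd151*-/- mice 1 to 4 it was 8.23, 8.68, 7.64 and 8.66, a mean of 8.30 ± 0.49 (SD, n = 4). *Cd151*-/- mice 1, 2 and 4 were above every *Cd151*+/+ mouse, and *Cd151*-/- mouse 3 lay between *Cd151*+/+ mice 1 and 4. The difference was 0.73 (SE 0.26, 95% interval 0.16 to 1.30), or 1.66-fold (1.11 to 2.46), with an unadjusted limma p of 0.0172, an adjusted p of 0.918 and an exact permutation p of 0.0571. Within the lower-background and the higher-background arrays it was 0.63 and 0.83. Without *Cd151*-/- mouse 2 the difference was 0.60 and the unadjusted limma p 0.0538, adjusted 0.931.

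The other *Ctsz* probe (ILMN_2666007) gave 6.52, 6.59, 6.84 and 7.45 in *Cd151*+/+ mice 1 to 4, a mean of 6.85 ± 0.42 (SD, n = 4). In *Cd151*-/- mice 1 to 4 it gave 7.89, 8.09, 7.32 and 8.01, a mean of 7.83 ± 0.35 (SD, n = 4). As with the brighter probe, *Cd151*-/- mouse 3 was the lowest of its genotype and fell below *Cd151*+/+ mouse 4, the highest of the controls. The difference was 0.98 (SE 0.27, 95% interval 0.38 to 1.58), or 1.97-fold (1.30 to 2.98), with an unadjusted limma p of 0.0042, an adjusted p of 0.918 and an exact permutation p of 0.0571. Within the lower-background and the higher-background arrays it was 1.11 and 0.85. With either probe both *Cd151*-/- mice were above both *Cd151*+/+ mice in each set, as were 5.15% of all tested probes. The probes measure transcripts of the same gene in the same mice and are not independent of each other.

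Cathepsin H, an aminopeptidase, followed neither the genotype nor the background set. The *Ctsh* signal was 9.67, 10.05, 10.46 and 11.06 in *Cd151*+/+ mice 1 to 4 and 10.86, 9.95, 10.55 and 11.85 in *Cd151*-/- mice 1 to 4. *Cd151*-/- mouse 4 was the highest and *Cd151*+/+ mouse 1 the lowest, and *Cd151*-/- mouse 2 was below 3 of the 4 controls. The difference was 0.50 (SE 0.41, 95% interval -0.41 to 1.40), with an adjusted limma p of 0.918 and an exact permutation p of 0.40. Without *Cd151*-/- mouse 4 it was 0.15 and without *Cd151*-/- mouse 2 it was 0.78. It did not hold within the sets, being 1.35 within the lower-background and -0.35 within the higher-background arrays. Cathepsin C, the dipeptidyl peptidase that activates the serine proteases of granulocytes and cytotoxic lymphocytes, was not detected with any of its 3 probes on any array, and *Ctsc* was therefore not tested. Its log2 signals lay between 4.43 and 5.07.

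**Figure D2:**
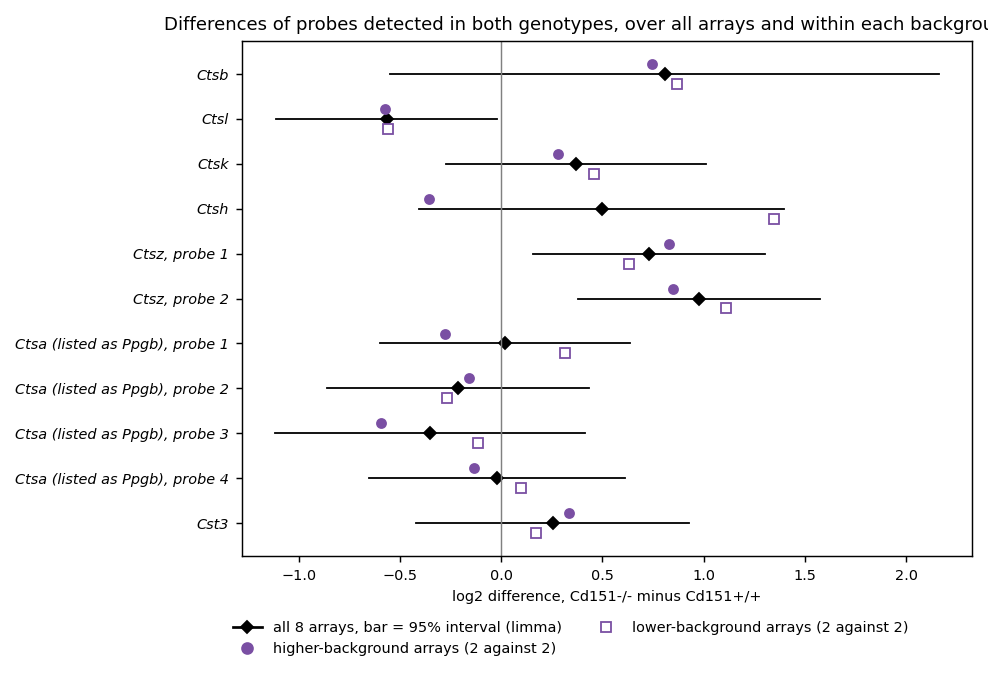
Log2 difference of *Cd151*-/- minus *Cd151*+/+ (horizontal axis) for the 7 tested probes detected in both genotypes, which leaves out *Ctss*, and the 4 *Ctsa* probes, with black diamonds and 95% intervals from limma over 8 arrays, purple circles for the higher-background arrays and open squares for the lower-background arrays (2 mice against 2 each). The intervals of the *Ctsz* and *Ctsl* probes leave out 0, and the within-set values of *Ctsh*, 1.35 and -0.35, lie on either side of it.

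Cathepsin A is a serine carboxypeptidase that is also called protective protein, because it shields β-galactosidase and neuraminidase 1 from degradation in the lysosome. Its brightest probe, listed as *Ppgb*, gave a log2 signal of 9.25, 9.21, 9.83 and 9.52 in *Cd151*+/+ mice 1 to 4 and 9.84, 8.95, 9.13 and 9.95 in *Cd151*-/- mice 1 to 4. The highest and the lowest value both came from *Cd151*-/- mice. The difference was 0.02 (SE 0.28, 95% interval -0.60 to 0.63), so a change of up to about 0.6 in either direction is within its error. The other 3 *Ctsa* probes were dimmer, at means of 5.46 to 5.94, and differed by -0.21, -0.35 and -0.02 with exact permutation p of 0.514, 0.40 and 0.971. Of the 4 probes 0 passed an unadjusted p of 0.05.

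Cystatin C was detected in every mouse. The *Cst3* signal was 11.88, 11.97, 12.87 and 12.33 in *Cd151*+/+ mice 1 to 4 and 12.83, 13.04, 12.19 and 12.01 in *Cd151*-/- mice 1 to 4. The 4 higher-background arrays were above the 4 lower-background arrays, by 0.76 on average, and the genotypes overlapped across most of their range. The difference was 0.25 (SE 0.31, 95% interval -0.42 to 0.93), a 1.19-fold ratio with an adjusted limma p of 0.918 and an exact permutation p of 0.457. It was 0.17 within the lower-background and 0.34 within the higher-background arrays.

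For each member detected on all 8 arrays, the probe with the most similar profile over the 8 mice was looked up among 9495 probes detected on all arrays. Pearson's r over the 8 mice was 0.995 between *Ctsb* and *Rnf14*, 0.989 between *Ctsl* and *Polr2e*, 0.992 between *Ctsh* and *Gcnt1*, and 0.976 between *Ctsk* and *Narg1l*, now named *Naa16*. It was 0.953 between *Ctsz* and *Thyn1*, 0.984 between *Ctsa* and *Paox*, and 0.997 between *Cst3* and *2310067E08Rik*, now named *Endod1*. The points share their arrays and background sets, and 7.00% of the probes searched had an r over 0.9 with *Ctsb*, 5.17% with *Cst3* and 0.169% with *Ctsz*.

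Most of the other cathepsins were not detected on any array. Of 17 listed genes, which include the catalytically inactive relatives *Tinag* and *Tinagl*, now named *Tinagl1*, 7 were tested, 0 were higher and 1 was lower at an unadjusted p below 0.05. That gene was *Ctse*, an aspartic protease, with 5.70 to 5.98 in *Cd151*+/+ mice and 4.85 to 5.50 in *Cd151*-/- mice. The *Ctse* values did not overlap, and the log2 difference was -0.60 (SE 0.22, adjusted limma p 0.918, exact permutation p = 0.0286, the smallest possible). *Ctse* was detected in 4 of 4 controls and 3 of 4 knockouts. Its knockout values lay near or below the lowest detected signals of the *Cd151*-/- arrays, 5.22 to 5.47. Over all 11091 genes tested 2.46% were lower at an unadjusted p below 0.05, and 148 had every knockout value below every control value. *Ctsd*, the main aspartic protease of the lysosome, had means of 5.79 ± 0.26 and 6.05 ± 0.31 (SD, n = 4), a difference of 0.25 (SE 0.23). These means lay little above the lowest detected signals of the arrays of both genotypes, 5.22 to 5.48, so background limits this difference. *Tinagl*, a basement membrane protein, differed by -0.68 (SE 0.41), and *Tinag*, a basement membrane protein of the tubule, by 0.91 (SE 0.59). *Tinag* differed by 1.75 within the lower-background and by 0.08 within the higher-background arrays.

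Of 20 listed cystatins and related inhibitors, 9 were tested and none passed an unadjusted p of 0.05. *Cstb*, the inhibitor inside cells, had means of 13.43 ± 0.27 and 13.66 ± 0.32 (SD, n = 4), a difference of 0.23 (SE 0.24). *Kng2*, which encodes a kininogen with cystatin domains, differed by -0.49 (SE 0.31), and *Ahsg*, fetuin A, by -0.33 (SE 0.26) with detection in 1 of 8 mice. The median difference was 0.05 in this list and -0.10 in the list of other cathepsins, where all 11091 genes tested had a median of -0.0018. Neither sign was stable, as the cystatin median was -0.25 with scaling to the 75th percentile and -0.17 without *Cd151*-/- mouse 3, and the cathepsin median was 0.02 without *Cd151*+/+ mouse 1 and 0.05 without *Cd151*-/- mouse 2.

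Lysosomal hydrolases were tested in 28 of 34 listed genes. Of the 28, 23 had a higher mean in *Cd151*-/- glomeruli, with a median difference of 0.16, and 2 passed an unadjusted p of 0.05, both higher. Over all genes tested 49.7% had a higher mean, and 1.90% were higher and 2.46% lower at that threshold. The count of 23 is over all 8 arrays and was not taken within each background set, where signs differed for some genes. The difference was 0.73 within the lower-background and -0.06 within the higher-background arrays for *Neu1*, neuraminidase 1, and -0.18 and 0.36 for *Arsa*. *Dpp7*, a dipeptidyl peptidase, was 7.24, 7.28, 9.12 and 8.34 in *Cd151*+/+ mice 1 to 4 and from 8.06 to 9.82 in *Cd151*-/- mice, a difference of 1.13 (SE 0.48). Within the lower-background and the higher-background arrays it was 1.58 and 0.68. *Lgmn*, legumain, the protease that matures several cathepsins, had means of 12.42 ± 0.45 and 13.08 ± 0.58 (SD, n = 4), a difference of 0.66 (SE 0.33) that was 1.16 within the lower-background and 0.16 within the higher-background arrays. The adjusted limma p of *Dpp7* and of *Lgmn* was 0.918, and the groups overlapped for both.

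Of the genes for the lysosomal membrane, for delivery of enzymes to the lysosome and for its regulation, 25 of 27 were tested, 16 had a higher mean, and the median difference was 0.15. The count of 16 was likewise not taken within each background set. *Npc2*, which carries cholesterol out of the lysosome, passed an unadjusted p of 0.05 alone among them. Its signal was 5.00, 5.52, 5.28 and 5.24 in *Cd151*+/+ mice 1 to 4 and 6.04, 5.97, 5.58 and 5.85 in *Cd151*-/- mice 1 to 4. All knockout values lay above the control values, by 0.60 on average (SE 0.21, adjusted limma p 0.918, exact permutation p = 0.0286), with detection in 2 of 4 controls and 4 of 4 knockouts. Of all 11091 genes tested, 104 had every knockout value above every control value. The control values lay near the lowest detected signals of the *Cd151*+/+ arrays, 5.24 to 5.48, so background limits the size of this difference. *Scarb2*, the receptor that delivers glucocerebrosidase, differed by 0.43 (SE 0.24), and *Atp6v0a1*, a subunit of the proton pump that acidifies the lysosome, by -0.45 (SE 0.26).

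Of the proteins that cathepsin L is known to cleave in podocytes and of their partners, 3 of 6 listed genes were tested and none passed an unadjusted p of 0.05. *Dnm2*, dynamin 2, had means of 8.4 ± 0.70 and 8.02 ± 0.59 (SD, n = 4), a difference of -0.37 (SE 0.38). *Dnm*, now named *Dnm1*, was detected in 0 controls and in 2 of 4 knockouts, and *Itga3*, the integrin subunit that binds Cd151, differed by -0.08 (SE 0.25). *Cd2ap* was not detected on any array, and no row was listed for *Synpo*.

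**Figure D3:**
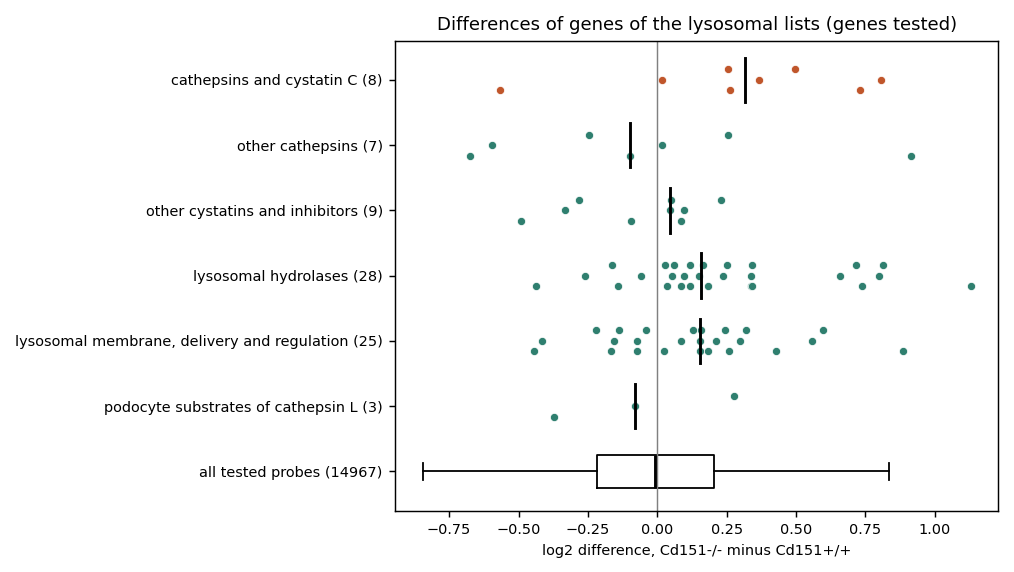
Log2 difference of *Cd151*-/- minus *Cd151*+/+ (horizontal axis) for each tested gene of the cathepsins and cystatin C and of the 5 other lists, 1 point per gene at its fitted value (also where a genotype had no detected signal, as for *Ctss* and *Dnm*), with a black line at the median of each list and a box for the quartiles of all 14967 tested probes (whiskers reach the last value within 1.5 box lengths). The points of the hydrolases and of the membrane and delivery genes have medians of 0.16 and 0.15.

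Markers of the cells that a glomerular isolate can hold were read beside these values, and an association between them was not tested. The podocyte marker *Cdkn1c* was detected in every mouse, with means of 15.50 ± 0.05 and 15.46 ± 0.11 (SD, n = 4), as were the brightest markers of the endothelium, *Egfl7*, and of mesangium and smooth muscle, *0610041G09Rik*, now named *Acta2*. Of the tested markers 8 of 9 for podocytes, 11 of 12 for endothelium and 7 of 9 for mesangium and smooth muscle had a lower mean in *Cd151*-/- mice. *Acta2* was higher, by 0.38 (SE 0.23). All 13 tested markers of the proximal tubule had a higher mean in *Cd151*-/- mice, and their brightest, the phosphate transporter *Slc34a1*, differed by 0.48 (SE 0.37). The median difference of the 13 was 0.64, and the largest were those of the organic anion transporter *Slc22a8*, 1.45 (SE 0.32, adjusted limma p 0.744, detected in 1 of 4 controls and without overlap between the genotypes), and of *Kap*, 1.38 (SE 0.57). Of these 13 markers 9 were detected in every mouse. The endocytic receptor *Lrp2*, *Pck1* and *Gatm* were detected in 0 controls and in 2, 2 and 1 of 4 knockouts. These genes entered the list of tested markers only through knockout arrays, so their higher means are partly set by the detection filter.

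The summed linear signal of the 13 proximal tubule markers was 21847, 30206, 48868 and 64405 in *Cd151*+/+ mice 1 to 4 and 74416, 46132, 43952 and 81733 in *Cd151*-/- mice 1 to 4. *Cd151*-/- mouse 4 had the highest and *Cd151*+/+ mouse 1 the lowest sum, as for *Ctsh*. Within the lower-background arrays the mice had the same order for the sum and for *Ctsh*. Within the higher-background arrays *Cd151*-/- mouse 2 was the lowest for both. The highest there was *Cd151*-/- mouse 1 for the sum and *Cd151*+/+ mouse 4 for *Ctsh*. The log2 difference of the sum was 1.22 within the lower-background and 0.06 within the higher-background arrays, beside 1.35 and -0.35 for *Ctsh*, 0.87 and 0.75 for *Ctsb*, 0.63 and 0.83 for the brighter *Ctsz* probe, and -0.56 and -0.57 for *Ctsl*. The part of tubular RNA in these differences was not tested. Of 11 tested macrophage and leukocyte markers, whose cells are known for *Ctss* and *Ctsz*, 7 had a higher mean, and their summed signal was 3283 to 5781 in *Cd151*+/+ and 3925 to 6703 in *Cd151*-/- mice. *Ptprc*, the marker of all leukocytes, was not detected on any array, and the brightest of the list, *Lyz*, now named *Lyz1*, differed by 0.25 (SE 0.44). *Coro1a* differed by -0.34 (SE 0.21, adjusted limma p 0.918), with every knockout value below every control value, as for 1.46% of all tested probes. The median difference of the 11 tested markers was 0.02, and 4 had a lower mean. The summed signal of the 5 tested erythroid markers was 38181 to 50167 in *Cd151*+/+ and 17955 to 37524 in *Cd151*-/- mice. These sums did not overlap but came close, at 38181 and 37524. None of the 5 markers separated the genotypes alone, while 1.46% of all tested probes had every knockout value below every control value. Their brightest, *Hba-a1*, differed by -0.69 (SE 0.27), and its values overlapped. Whether the share of blood cells bears on any cathepsin value was not tested.

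**Figure D4:**
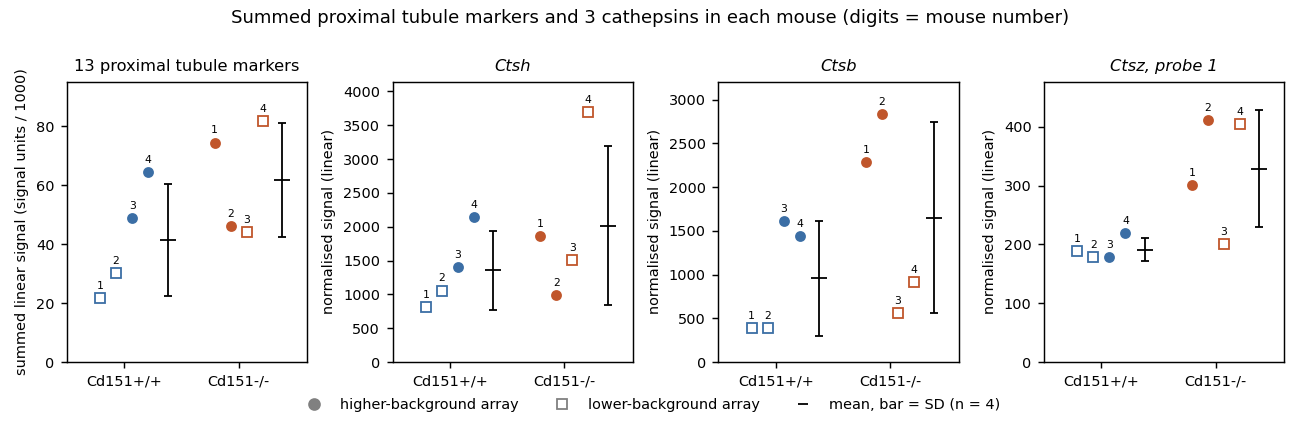
Summed linear signal of the 13 tested proximal tubule markers (left panel, in signal units divided by 1000) and linear normalised signal of *Ctsh*, *Ctsb* and the brighter *Ctsz* probe (other panels) in each mouse, with filled circles for higher-background and open squares for lower-background arrays and the mean with its SD (n = 4). *Cd151*-/- mouse 4 is the highest for the marker sum and for *Ctsh*, whereas *Cd151*-/- mouse 2 is the highest for *Ctsb* and *Ctsz*.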

How the data were processed

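Total RNA of glomeruli from 4 *Cd151*+/+ and 4 *Cd151*-/- mice was amplified, biotin-labelled and read with the BeadArray Reader by the authors. The authors deposited 1 signal intensity per probe and mouse, exported from GenomeStudio (version not given in the sources used here) and neither background-subtracted nor normalised. Beside it they deposited a detection p-value in steps of 1 over 798, the share of negative-control probes at least as bright. The study's own cubic spline values were not used here.

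In R 4.3.3, limma 3.58.1 inferred the background of each array from the detection p-values, applied neqc (offset 16, quantile normalisation) and fitted the genotypes, without covariates, to the 14967 of 25697 probes that were detected (0.05 or lower) in 1 mouse or more, with Benjamini-Hochberg adjustment over them. Single probes and summed marker signals were also tested with two-sided exact permutation tests. Of several probes for 1 gene the brightest entered the lists. For the folds of *Cd151* the lowest detected signal of each array stood in for undetected probes, while the fits used the normalised signals of all tested probes. Named beside the members and *Cd151* were the 3 genes of each list with the smallest p, *Ctsd*, *Cstb*, *Lgmn*, *Dnm2*, *Synpo*, the brightest marker of each cell type and the most similar probe. *Tinag*-type relatives count as cathepsins, and *Lrp2*, *Pck1*, *Gatm*, *Slc22a8*, *Kap*, *Ptprc*, *Coro1a*, *Cd2ap*, *Neu1* and *Arsa* were named outside this rule after their values were seen. The result of 1 gene that this rule names is not reported here. Gene symbols were matched to RefSeq (GRCm38.p6), 12036 of 18120 directly and 5204 through a synonym. The members, lists, tests and alternatives were chosen with earlier results of these data known, and the background sets after the arrays were seen.

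Alternatives were no background correction, 75th percentile scaling, a cubic spline, an offset of 50, 2 other detection filters, the mouse number or the background set as a block, other variance models and leaving out each mouse. Mouse numbers did not pair the genotypes: deviations of same-numbered mice from their group means correlated at -0.583, -0.404, -0.533 and -0.00856 over probes. The procedure was also run on simulated data with independent noise for each probe and array. Those data held no background sets, so they cannot show how the p-values behave with such sets. The number of arrays limits the precision, and the labels describe each mouse as a biological replicate.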

Additional observations from a re-analysis of the deposited data

Results flagged for a closer look

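Of 36 groups of 4 mice examined (each genotype for every tested cathepsin, cystatin C and *Ctsa* probe and for the 6 marker sums), 1 held a mouse far from the other 3. The summed signal of the 9 tested mesangium and smooth muscle markers was 19824 in *Cd151*-/- mouse 4 and 32583 to 33191 in the other 3 *Cd151*-/- mice, a gap of 0.964 of the group's range on the log2 scale. About 1 in 20 groups would be picked out by chance at this limit. *Cd151*-/- mouse 4 also had the highest *Ctsh* signal, 11.85, and the lowest *Ctsk* signal of its genotype, 6.57.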

How the results depend on the processing

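In each of the alternatives run (18 or 19 per probe), *Ctsb*, *Ctsh*, *Ctsk*, both *Ctsz* probes and *Cst3* stayed higher and *Ctsl* stayed lower in *Cd151*-/- mice, and 0 member probes passed an adjusted p of 0.05, with adjusted p from 0.0885 (array weights) to 1 for *Ctsb*, *Ctsl* and *Ctsz*. The unadjusted p was below 0.05 in 19 of 19 for ILMN_2666007 (log2 difference 0.64 to 1.2), in 18 of 19 for ILMN_2839569 (0.56 to 0.95), in 9 of 19 for *Ctsl* (-0.84 to -0.46) and in 2 of 19 for *Ctsb* (0.45 to 1.84). With each mouse left out, *Ctsh* ranged from 0.15 to 0.78, *Ctsk* from 0.23 to 0.56 and *Cst3* from 0.08 to 0.46. Array weights gave 5 member probes higher. The count of member probes lower went from 1 to 0 with 75th percentile scaling, with a trended and robust variance, with an equal-variance test and with the replicate block. That replicate block (mouse number, which does not pair the mice) gave an adjusted p of 0.998 or 0.999 for each member probe tested and 215 probes lower in all. Over all tested probes, those higher and lower at an unadjusted p below 0.05 numbered 139 and 250 with 75th percentile scaling, 431 and 663 without a detection filter, 780 and 910 with the background-set block and 2336 and 2480 with array weights, against 253 and 390. Probes past an adjusted p of 0.05 numbered 8 with the background-set block and 3 with the equal-variance test, against 5. Genes of the 5 lists past an unadjusted p of 0.05 numbered 2 without background correction, against 4. With each mouse left out in turn these counts ranged from 131 to 625 higher, 209 to 783 lower, 4 to 6 past the adjusted threshold, 1 to 2 and 0 to 1 member probes higher and lower, and 2 to 7 genes of the lists. Most probes were called without *Cd151*-/- mouse 3. *Ctsa* probes close to 0 changed sign. ILMN_1213617 (-0.14 to 0.19 with each mouse left out) became -0.05, -0.06, -0.11 and -0.14 without *Cd151*+/+ mouse 1 or 2 or *Cd151*-/- mouse 1 or 4, ILMN_2681631 (-0.17 to 0.17) became 0.17, 0.13 and 0.07 without *Cd151*+/+ mouse 2 or *Cd151*-/- mouse 1 or 2, and ILMN_3045359 became 0.026 with array weights. The cause was not tested. Signal near background limits *Ctss*, *Ctsc*, the dim *Ctsa* probes, *Ctse*, *Ctsd* and *Npc2*.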
